A study of Mus musculus with 6 samples.

Results

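The Eya-family and Six-family genes encode proteins that work as partners, and 9 of them were followed through myogenic differentiation in Hi-C data: Eya1, Eya2, Eya3, Eya4, Six2, Six3, Six4, Six5 and Six6. Each gene was placed in the 500 kb bin that holds its transcription start site in the GENCODE annotation of the mm10 mouse genome. The 9 genes fell into 8 bins, because Six2 and Six3 share a bin, out of 4727 autosomal bins with data in every condition. Six6 and Six4 lie in adjacent bins of chr 12 and so share neighbours. Every member gene lies wholly within its bin, and a value describes the whole 500 kb rather than the gene alone. The set was put together around the Eya1 bin, which was known from these same matrices to cross between compartments, and the other members joined it by family name. All values below are therefore descriptions, and none was tested.

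Hi-C measures how often pairs of genomic segments are ligated to each other after cross-linking, as a record of which segments lie close together in the nucleus. The cells were C2C12, an immortalized mouse line of muscle progenitors which was derived from crush-injured thigh muscle of C3H mice, and were used at passage 3. Myoblasts were sub-confluent cultures in growth medium with foetal bovine serum at day 0. Myotubes were high-density cultures held for 3 days in differentiation medium with horse serum, without AraC. AraC-treated myotubes had the same 3 days of differentiation and were then given 10 µg/ml AraC, a cytidine analogue that kills dividing cells, until day 7. Each condition had 2 biological replicates from different source vials of the 1 cell line. Their reads were pooled into a single matrix before deposit, so no spread between replicates can be given for any value. For whole matrices, the paper reports a lower correlation between the myoblast replicates than between the replicates of either kind of myotubes. Untreated myotube cultures still held myoblasts, and a mixture of cells cannot be told apart from an intermediate state within each cell. Time in culture and AraC treatment cannot be told apart either, since no untreated day 7 culture was analysed here. Hi-C carries no expression values, so the labelled cell states were not checked against marker genes here. The paper reports RNA sequencing of the same conditions, with Myog and other muscle genes raised in both kinds of myotubes.

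Chromosomes are partitioned into the A compartment, which is gene-rich and largely open, and the B compartment, which is mostly closed and often lies at the nuclear periphery. The first principal component of the correlated interaction profiles (PC1) separates them, with positive values taken as A and negative values as B. EYA proteins do not bind DNA themselves. They act as transcriptional coactivators, carry a protein tyrosine phosphatase domain, and are brought to genes by the SIX-family homeodomain proteins, which in muscle bind MEF3 elements of genes such as Myog and those of fast fibres. PAX factors and the DACH corepressors complete this network, first described in eye development.

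Start-site sequences are shown for the members on which the results below turn (Eya4, Six2 and Six3, whose bins moved towards or away from the compartment border), for Eya3, whose bin had the highest compartment scores of the 9 genes, and for Six4, which held the only MEF3 match. RefSeq promoters of GRCm38.p6, running from 250 bases before to 50 bases after a transcription start, were found for 7 of the 9 members, with no entry for Eya1 and Eya2. In the first 4 sequences capitals mark CpG dinucleotides, and all are written 5′ to 3′ on the strand of the gene. They lie at chr10:23349894-23350193 (minus strand), chr17:85688205-85688504 (minus strand), chr17:85620584-85620883 (plus strand), chr4:132638796-132639095 (plus strand) and chr12:73113196-73113495 (minus strand).
Eya4: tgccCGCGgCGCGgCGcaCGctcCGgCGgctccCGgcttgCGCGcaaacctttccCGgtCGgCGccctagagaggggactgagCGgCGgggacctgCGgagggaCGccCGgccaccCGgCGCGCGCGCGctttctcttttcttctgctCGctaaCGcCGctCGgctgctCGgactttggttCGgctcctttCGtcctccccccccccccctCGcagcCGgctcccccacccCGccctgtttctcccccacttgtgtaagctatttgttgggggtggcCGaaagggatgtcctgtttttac
Six2: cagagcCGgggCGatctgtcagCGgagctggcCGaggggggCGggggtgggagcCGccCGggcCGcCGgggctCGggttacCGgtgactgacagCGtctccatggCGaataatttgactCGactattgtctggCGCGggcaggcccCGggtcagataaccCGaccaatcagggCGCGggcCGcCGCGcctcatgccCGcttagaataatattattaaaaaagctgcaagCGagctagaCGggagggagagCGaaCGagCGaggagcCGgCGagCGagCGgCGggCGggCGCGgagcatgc
Six3: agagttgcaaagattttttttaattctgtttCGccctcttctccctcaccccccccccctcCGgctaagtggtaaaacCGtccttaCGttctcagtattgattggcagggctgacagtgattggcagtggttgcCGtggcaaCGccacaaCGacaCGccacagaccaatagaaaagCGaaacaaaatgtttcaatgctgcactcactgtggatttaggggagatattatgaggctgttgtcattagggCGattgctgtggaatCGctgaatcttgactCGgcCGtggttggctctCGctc
Eya3: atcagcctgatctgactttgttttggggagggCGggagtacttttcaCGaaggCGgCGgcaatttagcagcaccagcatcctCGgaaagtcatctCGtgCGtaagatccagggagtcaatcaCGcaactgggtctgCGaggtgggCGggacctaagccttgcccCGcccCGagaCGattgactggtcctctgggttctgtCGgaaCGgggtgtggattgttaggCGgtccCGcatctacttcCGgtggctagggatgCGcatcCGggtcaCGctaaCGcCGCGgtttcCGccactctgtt
Six4, with the match to MEF3 in capitals: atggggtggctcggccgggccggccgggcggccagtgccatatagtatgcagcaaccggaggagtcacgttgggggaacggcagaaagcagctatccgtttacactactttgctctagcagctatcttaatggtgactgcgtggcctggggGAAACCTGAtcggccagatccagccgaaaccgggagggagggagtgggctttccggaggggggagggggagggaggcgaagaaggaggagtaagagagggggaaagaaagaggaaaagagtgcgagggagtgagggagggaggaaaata

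RefSeq lists a pair of overlapping windows each for Eya4 and Six4. The Six2 promoter held 37 CpG dinucleotides and the Eya4 windows 36, in the one printed, and 28, against a median of 7 over 32851 RefSeq promoters of the same length. The Eya3 promoter held 25 and the Six3 window 14. The Six3 window does not hold the start site used to place the gene (chr17:85613608). The Eya4 windows do not hold theirs either (chr10:23350786), so both genes are shown at another start within the same bin. All of the members with an entry were above the median, both in bins that stayed in A and in the B bin of Six2 and Six3. The share of all promoters with fewer CpG dinucleotides ran from 63.7% for Six3 to 94.4% for Six2. The MEF3 element (TCAGGTTTC) was searched on both strands and was found once, in the Six4 window printed above and not in its other window, while 0.429% of all promoters held it. An E-box (CANNTG, which reads the same on both strands) occurred in the Eya3 and Eya4 windows, as in 72.3% of all promoters, and the TATA box (TATAAA, both strands) in none of the members' windows, against 13.6% of all promoters. These matches describe letters in a window and not sites at which a factor was measured.

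PC1 was divided by its standard deviation (SD) over the bins of the chromosome in that condition, because its spread over autosomal bins differed between matrices, from 0.859 in myoblasts to 1.61 in myotubes and 1.36 after AraC treatment. By this scaled PC1, 7 of the 8 bins lay in A in myoblasts and 6 in both kinds of myotubes, and 6 lay in A throughout. Over all autosomal bins 38.3%, 36.5% and 35.5% lay in A in myoblasts, untreated myotubes and AraC-treated myotubes. The exceptions were the Eya1 bin, which was in A in myoblasts and in B in both kinds of myotubes, and the Six2/Six3 bin, which was in B in all 3 conditions. One of 8 member bins had opposite signs of PC1 in myoblasts and myotubes, against a background of 7.32% of autosomal bins. The comparison of myoblasts with AraC-treated myotubes gave 1 of 8, where the background was 10.2%, and that of the 2 kinds of myotubes 0 of 8, where it was 5.12%. Since the Eya1 bin was picked for this change, the counts say nothing further about the families. PC1 also held the lowest share of the variance in myoblasts, with a median over autosomes of 39.4%, against 71.3% in myotubes and 63.4% after AraC treatment.

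**Figure D1:**
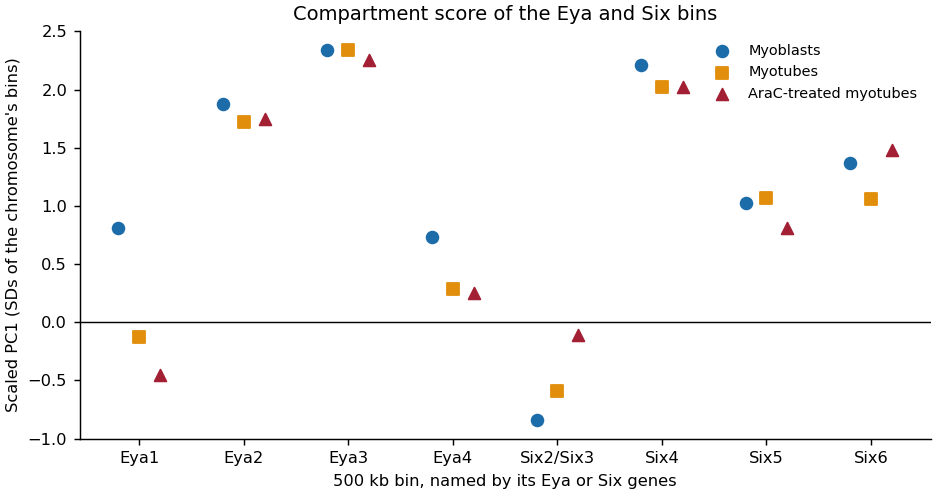
Scaled PC1 (in SDs of the bins of the chromosome) of the 8 bins that hold Eya-family and Six-family genes, with 1 point per pooled matrix for myoblasts, myotubes and AraC-treated myotubes. Points above the line at 0 lie in the A compartment: the Eya1 bin starts at 0.808 and ends at -0.454, the Six2/Six3 bin stays below 0, and the Eya2, Eya3 and Six4 bins stay above 1.7.

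The Eya1 bin (chr1:14000001-14500000) holds the start site of no other protein-coding gene. EYA1 is a coactivator needed for the development of ear, kidney and muscle precursors. The unscaled PC1 was 0.718 in myoblasts, -0.207 in myotubes and -0.636 after AraC treatment. On the scaled measure the values were 0.808, -0.123 and -0.454. Myoblasts were thus the only condition on the A side, and the value of AraC-treated myotubes lay deeper in B than that of untreated myotubes. In untreated myotubes the bin was close to the border, with an absolute PC1 under the 20th percentile of chr 1, and it would not count as crossed there if such bins were left out. The difference between myoblasts and AraC-treated myotubes was -1.26 in scaled PC1, and 0.0635% of autosomal bins had a lower one. Among the 308 autosomal bins that were in A in myoblasts and in B in AraC-treated myotubes, its drop ranked 1 in PC1 and 3 in scaled PC1. From myoblasts to myotubes the difference was -0.931, and from myotubes to AraC-treated myotubes -0.331.

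Around Eya1 the neighbouring bins were close to the border in myoblasts, so the gene stood out as a local peak. The 8 other bins within 2 Mb had a mean scaled PC1 of 0.0346 in myoblasts, -0.365 in myotubes and -0.398 after AraC treatment. All 9 bins of the window were lower in myotubes than in myoblasts, in scaled and in unscaled PC1, and 6 of them, Eya1 included, had crossed from A to B. The same 9 bins were lower in AraC-treated myotubes than in myoblasts, again with 6 of opposite sign. The bin after Eya1 holds Msc, which encodes the bHLH repressor musculin, and Trpa1, an ion channel gene; its scaled PC1 was 0.0728, -0.499 and -0.708. The bin before it, with Lactb2, Tram1 and Xkr9, had 0.268, -0.380 and -0.498. Further out, a bin with Slco5a1 and the heparan sulphate sulphatase gene Sulf1 went from 0.0643 to -0.379 and -0.222, a bin with 4930444P10Rik, Rdh10 and Rpl7 from 0.305 to -0.0241 and -0.0730, and a bin without a protein-coding start site from 0.181 to -0.0459 and -0.102. Several of these crossings were therefore small and started near 0. The Eya1 bin remained above the mean of its 2 adjacent bins in each condition, by 0.638 in myoblasts, 0.316 in myotubes and 0.149 after AraC treatment. The run of consecutive A bins around it was 3 bins long in myoblasts, and the run of B bins it lay in was 27 bins long in both kinds of myotubes.

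**Figure D2:**
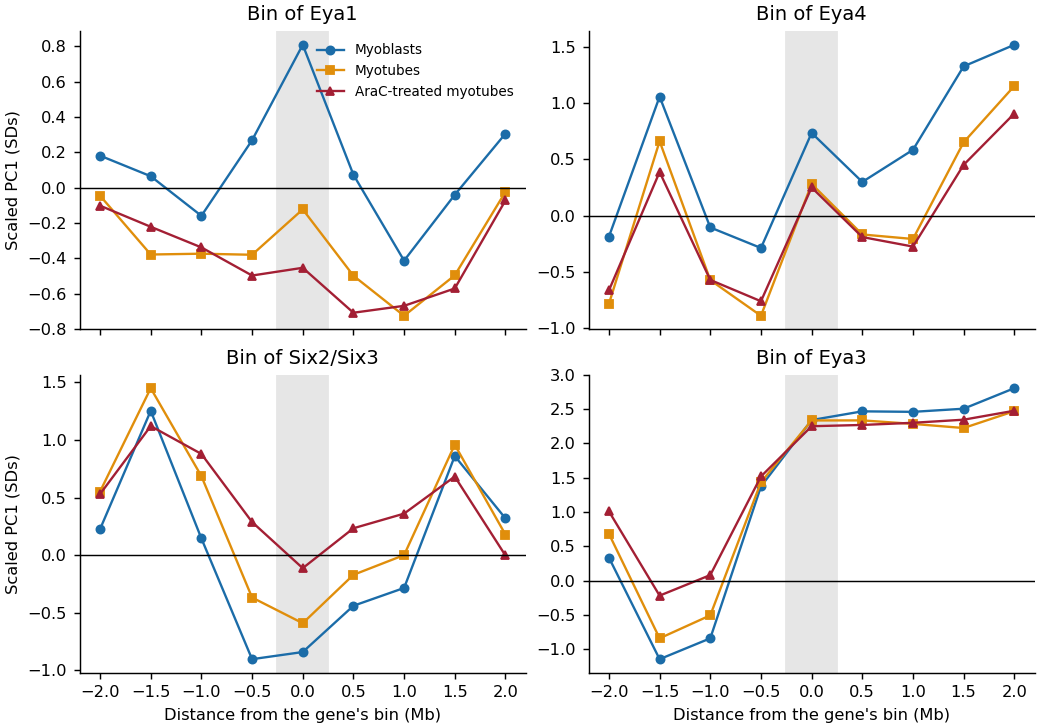
Scaled PC1 (in SDs) of the bins up to 2 Mb on either side of the Eya1, Eya4, Six2/Six3 and Eya3 bins, by distance from the bin of the gene (grey band), with 1 line per condition and a vertical scale of its own in each panel. The Eya1 window lies below 0 throughout in both kinds of myotubes, the Eya4 bin is an isolated positive bin in both, and the bins directly beside Six2/Six3 are positive only in AraC-treated myotubes.

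Eya4 encodes a coactivator known from the inner ear and the heart, and its bin (chr10:23000001-23500000) likewise holds no other protein-coding start site. Its unscaled PC1 was 0.560 in myoblasts, 0.414 in myotubes and 0.316 after AraC treatment. The scaled values were 0.736, 0.282 and 0.251. All 3 lay in A, with that of myoblasts highest and those of the myotubes close together. The difference from myoblasts was -0.454 for untreated myotubes and -0.485 for AraC-treated ones, and 4.06% and 6.45% of autosomal bins had lower ones. In unscaled PC1 the differences were -0.146 and -0.243, and 59.5% and 46.7% of autosomal bins had lower ones, so on that measure the Eya4 bin lay in the middle of the distribution. When the columns were not centred before the component was taken, the AraC-treated value was -0.0118, on the B side, and the myotube value was 0.0267.

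In scaled PC1 all 9 bins within 2 Mb of Eya4 were lower in both kinds of myotubes than in myoblasts. In unscaled PC1 this held for all 9 after AraC treatment but for 7 of 9 in untreated myotubes. The mean scaled PC1 of the 8 others was 0.527 in myoblasts, -0.0195 in myotubes and -0.0895 after AraC treatment. A pair of them crossed from A to B. The bin directly after Eya4, with 12 protein-coding start sites including Rps12, Slc18b1 and Taar1, had 0.300, -0.168 and -0.191. The next, including Moxd1, Stx7 and Taar7d, had 0.586, -0.208 and -0.275. The Eya4 bin was part of a run of 11 A bins in myoblasts and a run of 1 in both kinds of myotubes. It exceeded its adjacent bins by 0.730 in myoblasts, 0.811 in myotubes and 0.727 after AraC treatment, so its own height over the neighbours varied less than their level did.

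Six2, a gene of nephron progenitors, and Six3, a gene of the forebrain and eye, are the only protein-coding genes with a start site in their bin (chr17:85500001-86000000). Unscaled PC1 was -0.685 in myoblasts, -0.888 in myotubes and -0.144 after AraC treatment, and the scaled values were -0.841, -0.591 and -0.113. The bin stayed in B while the AraC-treated value lay nearest to the border. The scaled difference from myoblasts was 0.250 for untreated myotubes and 0.728 for AraC-treated ones, and 95.9% of autosomal bins had a lower value of the second (78.2% in unscaled PC1). Between the 2 kinds of myotubes it was 0.478, where 97.4% had a lower one. In unscaled PC1 the step from myoblasts to myotubes was -0.203, so the direction of that first step depended on the scaling.

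Bins beside Six2 and Six3 crossed the border although their own bin did not. The bin before them, with Camkmt, Prepl and Slc3a1, had a scaled PC1 of -0.903 in myoblasts, -0.368 in myotubes and 0.287 after AraC treatment. The bin after them, with Prkce, which encodes a protein kinase C isoform, and Srbd1, had -0.440, -0.171 and 0.233. One bin further, with 5 protein-coding start sites including Atp6v1e2, Epas1 and Gm10309, had -0.285, 0.000285 and 0.360. In myoblasts the Six2/Six3 bin was thus inside a run of 4 B bins, in myotubes a run of 3, and in AraC-treated myotubes it was the only B bin between A neighbours.

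The bins of Eya2, Eya3, Six4, Six5 and Six6 lay in A in all 3 conditions. Eya3, a broadly expressed member, had scaled PC1 values of 2.34, 2.34 and 2.25 in myoblasts, myotubes and AraC-treated myotubes (chr4:132500001-133000000). These were the highest of the 8 bins, and 96.9%, 97.5% and 97.2% of autosomal bins lay lower. Six4, a member expressed in muscle, had 2.21, 2.02 and 2.02 (chr12:73000001-73500000). Eya2, which is also expressed in developing muscle, had 1.88, 1.72 and 1.75 (chr2:165500001-166000000). Six5, which neighbours the myotonic dystrophy kinase gene, had 1.03, 1.07 and 0.809 (chr7:19000001-19500000), and Six6, a gene of the retina and hypothalamus, had 1.37, 1.06 and 1.48 (chr12:72500001-73000000). Differences between conditions in these 5 bins ran from -0.309 for Six6, between myoblasts and myotubes, to 0.421 for Six6, between myotubes and AraC-treated myotubes. In unscaled PC1 all 5 bins were higher in myotubes than in myoblasts, by 0.462 (Six6) to 1.80 (Eya3), so the direction of that step turned with the scaling in every one of them but Six5. The order of the levels, from Eya3 through Six4 and Eya2 down to Six6 and Six5, held in myoblasts and in AraC-treated myotubes, while in myotubes Six5 lay above Six6 by less than 0.01.

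Only the dependence of a value on the choice of partner bins could be judged, within a matrix. The component was taken once from the odd-numbered and once from the even-numbered partner bins, and the scaled values of a bin differed between them by a median of 0.108 in myoblasts, 0.0564 in myotubes and 0.0707 after AraC treatment over autosomal bins. For Eya1 the pairs of values were 0.822 and 0.792 in myoblasts, -0.139 and -0.107 in myotubes, and -0.469 and -0.439 in AraC-treated myotubes. For Six2/Six3 they were -0.754 and -0.921, -0.544 and -0.636, and -0.120 and -0.106. Every member bin kept its sign in each condition between these versions, and also when the component was taken from coefficients with other chromosomes alone. All these versions rest on the same interaction profile of the bin, so their agreement does not measure the error of its value. They describe 1 matrix per condition and are no substitute for a spread between cultures.

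A bin can keep its compartment and still change partners, and so its profile of coefficients along the chromosome was compared between conditions by Pearson correlation. The Eya1 bin had *r* = -0.313 between myoblasts and myotubes, -0.536 between myoblasts and the AraC-treated cultures, and 0.841 between the 2 kinds of myotubes. Over autosomal bins the medians were 0.877, 0.839 and 0.947, and 0.930% and 0.423% had a lower *r* than Eya1 in the first and second comparison. Its profile was therefore reversed in sign against myoblasts and largely kept between the myotubes. Of the 8 bins, 1 had *r* below 0 between myoblasts and myotubes, beside 3.28% of autosomal bins. Against AraC-treated myotubes the count was 1 of 8, beside 5.80%, and the 2 kinds of myotubes gave 0 of 8, beside 1.16%.

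Eya4 had *r* = 0.434, 0.136 and 0.183 in the same order, next to Eya1 in the comparisons with myoblasts and lowest of the members between the 2 kinds of myotubes. Unlike Eya1, it correlated poorly between the 2 kinds of myotubes as well, where 2.43% of autosomal bins had a lower *r*. The odd and even partner bins gave 0.0985 and 0.272 for that comparison, and bins on all other chromosomes 0.303. In both kinds of myotubes the Eya4 bin had little contrast between A and B partners, as given below. Whether its low *r* reflects a change of partners or a profile of little contrast was not tested. For Six2/Six3 the values were 0.933, 0.547 and 0.597, so that AraC-treated myotubes were the condition set apart. The remaining 5 bins had *r* of at least 0.850 in each comparison, up to 0.985 for Eya3 between the 2 kinds of myotubes.

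**Figure D3:**
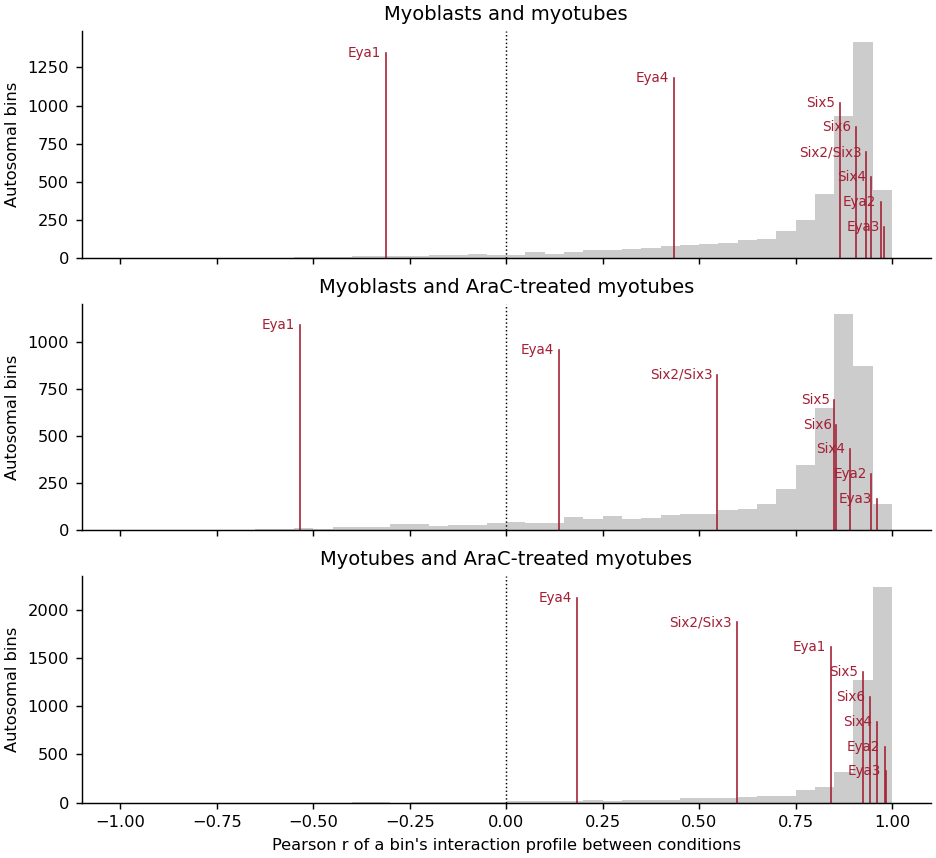
Pearson *r* of the interaction profile of a bin between conditions, with the number of autosomal bins in each interval of 0.05 (grey bars) and the 8 member bins (red lines, whose heights only separate the labels), for the 3 pairs of conditions. Eya1 lies below 0 in both comparisons with myoblasts and at 0.841 between the 2 kinds of myotubes, where Eya4 at 0.183 is the lowest member.

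Partners were then grouped by the compartment they kept in all 3 conditions. On chr 1 the Eya1 bin had a mean coefficient of 0.0245 with the 102 bins that stayed in A and of -0.0228 with the 230 that stayed in B in myoblasts. The means were -0.0362 and 0.0279 in myotubes, and -0.0547 and 0.0403 in AraC-treated myotubes. The preference was reversed rather than lost, and this was seen in the single coefficients: 80 of the 102 A bins had a positive coefficient with Eya1 in myoblasts, 17 in myotubes and 11 after AraC treatment, while for the 230 B bins the counts were 54, 210 and 228. The Eya1 bin was picked for its change of PC1 in these matrices, so the reversal restates that choice. Partners on other autosomes do not enter the within-chromosome PC1, but their coefficients rest on the same interaction profile of the Eya1 bin. Their similar course is therefore not separate support. For these partners the mean with A bins less the mean with B bins was 0.0419 in myoblasts, -0.0702 in myotubes and -0.0922 after AraC treatment.

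Because the SD of coefficients between autosomes differed between matrices (0.0446 in myoblasts, 0.0890 in myotubes and 0.0732 after AraC treatment), the difference between A and B partners on other autosomes was also expressed in those SDs. For Eya1 it was 0.938, -0.789 and -1.26. For Eya4 it was 1.17 in myoblasts, and only 0.100 and 0.0431 in the 2 kinds of myotubes, so that bin had hardly any preference left in either direction. For Six2/Six3 it was -1.33 in myoblasts and -1.06 in myotubes, which is the preference of a B bin, and -0.0122 in AraC-treated myotubes, where none was visible. On its own chromosome the Six2/Six3 bin still had a higher mean with B bins (0.0275) than with A bins (0.00615) in AraC-treated myotubes. Eya3 had the widest difference in each condition, with 4.40, 4.24 and 4.02, and Six4 and Eya2 were between 3.16 and 4.06. Six6 had 2.02, 1.41 and 2.28, and Six5 had 1.34, 1.45 and 0.863.

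**Figure D4:**
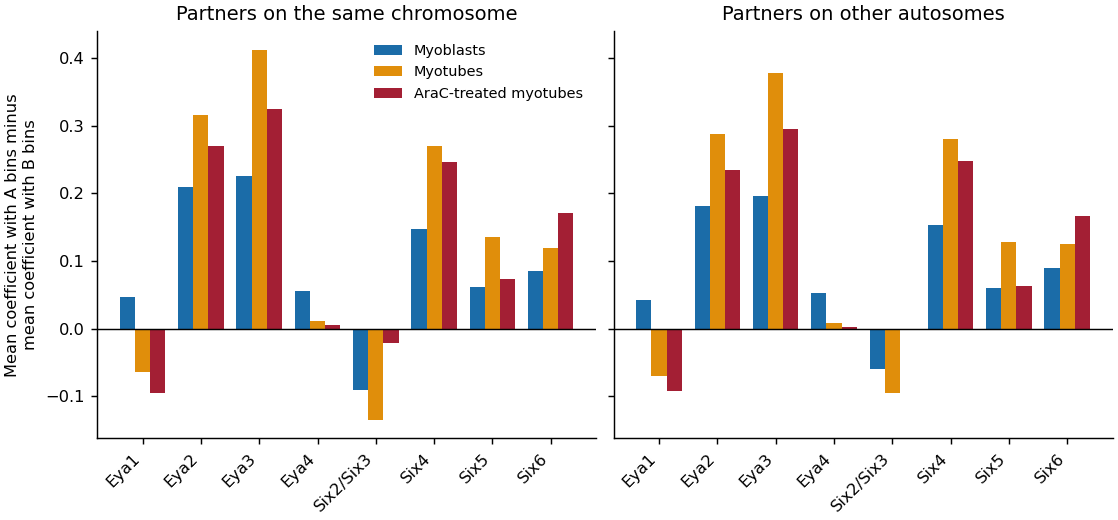
Mean correlation coefficient with bins that stayed in A less the mean with bins that stayed in B, for each member bin in the 3 conditions, over partners on the same chromosome (left) and on other autosomes (right). The Eya1 bars change sign after myoblasts, the Eya4 bars are close to 0 in both kinds of myotubes, and the Six2/Six3 bars are nearest to 0 in AraC-treated myotubes.

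The members were also set against each other. Of the 28 pairs of member bins 27 lie on different chromosomes, and their mean coefficient was 0.0473 in myoblasts, 0.0451 in myotubes and 0.0369 after AraC treatment. The median over the same pairs was 0.0403, 0.0159 and 0.00727, against 0.00573, 0.0159 and 0.0101 over all pairs of autosomal bins on different chromosomes. The highest coefficients were between Eya2, Eya3 and Six4. Eya2 with Eya3 had 0.247 in myoblasts, 0.341 in myotubes and 0.256 after AraC treatment, and at least 99% of all such pairs were lower. Over interchromosomal pairs of bins that stayed in A, the 95th percentile was 0.214, 0.368 and 0.299. Of the values of Eya2 with Eya3, only that of myoblasts lay above it. Eya3 with Six4 had 0.226, 0.340 and 0.296, and again only the myoblast value lay above it. Eya2 with Six4 had 0.195, 0.246 and 0.226, all below it. All of these are bins that stayed in A, and over the 14 interchromosomal pairs of such members the median was 0.0650, 0.0901 and 0.0463, beside 0.0483, 0.0800 and 0.0690 over all pairs of bins that stayed in A. The members that stayed in A thus had medians near those of other A bins.

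Eya1 had positive coefficients with each of the 6 bins that stayed in A in myoblasts, from 0.0197 with Eya2 to 0.0674 with Eya3. With Eya3 the coefficient was -0.0863 in myotubes and -0.0981 after AraC treatment, and with Six4 it went from 0.0564 to -0.0607 and -0.0837. With Eya4 it was 0.0515, 0.0209 and 0.00107. With Six2/Six3 it was -0.0374 in myoblasts, 0.0418 in myotubes and -0.00126 after AraC treatment, so the sign was positive only in untreated myotubes.

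**Figure D5:**
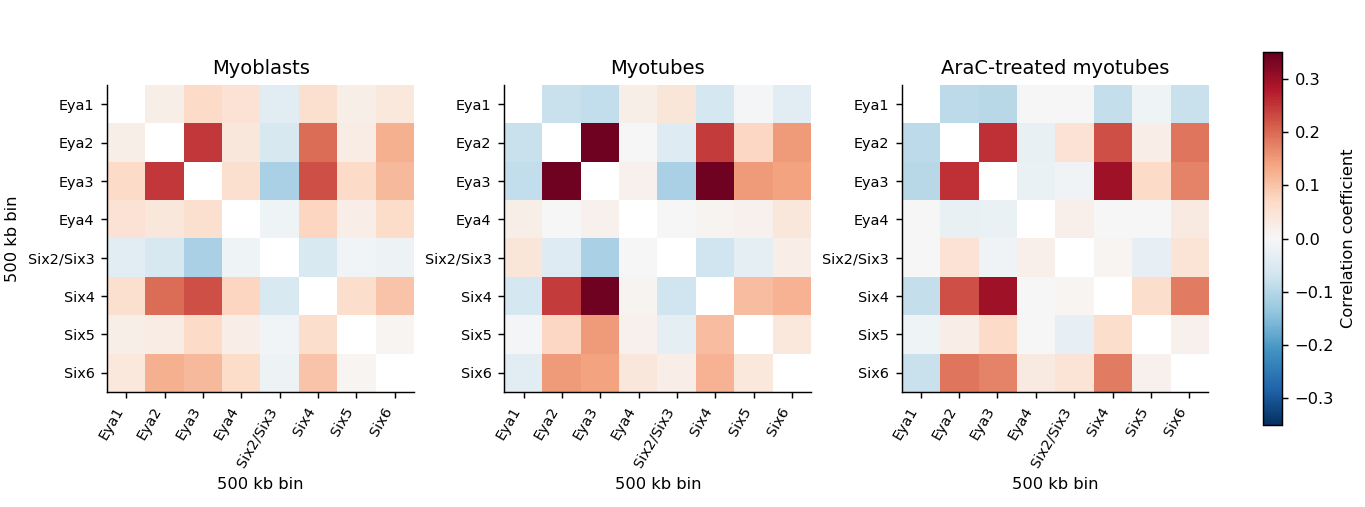
Correlation coefficients between the 8 member bins in myoblasts, myotubes and AraC-treated myotubes, on a colour scale from blue (negative) through white to red (positive), with the diagonal left blank. Eya2, Eya3 and Six4 share high coefficients in all 3 panels (0.195 to 0.341), and the Eya1 row is mostly positive in myoblasts and mostly negative in both kinds of myotubes.

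The member bins differed in sequence and gene content. GC content was 40.6% for the Eya1 bin and 39.9% for the Eya4 bin, below the autosomal median of 41.7%, and 46.5% for the Six2/Six3 bin, above which only the bins of Eya2 (49.1%) and Six5 (51.3%) lay. HindIII, the enzyme that cuts the chromatin in this assay, had 169 sites in the Eya1 bin, 177 in the Eya4 bin and 146 in the Six2/Six3 bin, within the 5th to 95th percentile range of 123 to 189. The Eya2 bin had 121 and the Six5 bin 91, a number below which only 0.254% of autosomal bins lay, and the 3 bins following the one after Six5 had no data in any condition. The Eya1 and Eya4 bins held 1 protein-coding start site each and the Six2/Six3 bin 2, which is the autosomal median, while the 5 bins that stayed in A at high values held 4 to 27. In scaled PC1 the 3 bins that differed most between conditions were those with the fewest start sites among the members. In unscaled PC1 the largest differences of the Eya2, Eya3, Six4, Six5 and Six6 bins all exceeded those of Six2/Six3 and Eya4.

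The other genes of the network and a set of genes known as targets of SIX-family proteins in muscle were placed in bins in the same way. The 9 PAX-SIX-EYA-DACH partners (PAX factors, DACH corepressors, the TLE corepressors and SOBP) lay in 9 bins, 4 of them in A in myoblasts, 5 in myotubes and 4 after AraC treatment. Only the bin of the corepressor gene Dach2, on chr X, had PC1 of opposite sign in 2 conditions, with scaled values of -0.934, 0.111 and -0.0400. The 7 myogenic genes lay in 6 bins, of which 4 were in A in each condition and none changed sign. Met, which encodes the hepatocyte growth factor receptor, had 1.03, 0.711 and 0.198, and its profile *r* was -0.140 between myoblasts and AraC-treated myotubes. The 10 fast-muscle genes lay in 7 bins, 6 of them in A in each condition, and none changed sign or had *r* below 0. The 4 proliferation genes lay in 4 bins, and that of Myc went from -0.203 and -0.113 to 0.0410 in AraC-treated myotubes, with *r* of -0.0565 against myoblasts and -0.0756 against myotubes. Median scaled changes from myoblasts to AraC-treated myotubes were 0.0468 for the partners, -0.0257 for the myogenic, -0.00465 for the fast-muscle and 0.399 for the proliferation genes, beside -0.162 for the member bins and -0.0199 over all autosomal bins. Between 0 and 1 bin of each list had PC1 of opposite sign, or *r* below 0, in any comparison, to be read beside the autosomal shares of 5.12% to 10.2% for sign and 1.16% to 5.80% for *r* given above. Of the members and lists, only Eya1, which was picked for this change, lay in A in myoblasts and in B in AraC-treated myotubes. Over autosomal bins, 308 of 4727 did so.

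Autosomal bins elsewhere had a course like that of Eya1. By Euclidean distance in scaled PC1 over the 3 conditions, the bins nearest to it included chr7:35000001-35500000, with 9 start sites including Cebpa, Cebpg and Cep89, at 0.705, -0.278 and -0.410 (distance 0.191). Another was chr12:32000001-32500000, with Ccdc71l, Pik3cg and Prkar2b, at 1.02, -0.0903 and -0.370 (distance 0.227). Both had *r* below 0 against myoblasts in either kind of myotubes, from -0.447 to -0.757.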

How the data were processed

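Hi-C libraries (HindIII, dilution protocol) came from 6 C2C12 cultures, 2 biological replicates per condition. The authors mapped the reads to mm10 with bowtie within HiCUP, pooled the di-tags of the replicates and normalized them in HOMER. They deposited 1 matrix per condition of Pearson correlation coefficients between the normalized interaction profiles of 500 kb bins. The coefficients were used as deposited, and 0 columns belonged to unmapped samples. The number of di-tags behind a coefficient is not in the files, and a coefficient does not show it. The last bin of 20 of 20 chromosomes held the last known base of GRCm38.p6.

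PC1 was computed per chromosome and condition from the within-chromosome block (columns centred, not scaled), signed by the density of protein-coding start sites (GENCODE vM21), and divided by its SD over the bins of the chromosome. Profile *r* was Pearson's correlation over the other bins of the chromosome. The members and gene lists were chosen with earlier results of these data known. Named were all members, listed genes whose bin changed sign or had *r* below 0, bins of opposite sign within 2 Mb of a member, the highest interchromosomal partner of each member and the 3 bins most like Eya1; some of these bins are not reported here. The component and *r* were tested on simulated data in which changed bins were inverted in full and noise was equal between conditions. That test does not measure their error in the real matrices or for bins near the border. Calculations were run in Python 3.11.15 with NumPy 2.4.6, and plots were drawn with Matplotlib 3.10.9.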

Additional observations from a re-analysis of the deposited data

How the results depend on the processing

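No paired analysis was possible because the replicates of a condition were pooled before deposit. Counts are of 8 member bins unless stated, and 35 of 57 alternatives to the counts and means kept them within 1.5 times. Those that did not include the mean coefficients expressed in SDs, for which the unit changed and the ratio has no meaning. Bins of opposite PC1 sign between myoblasts and myotubes numbered 1, but 2 for the bins after the members and 0 of the 6 bins whose absolute PC1 exceeded the 20th percentile of the chromosome in both, which leaves out Eya1. Between myoblasts and AraC-treated myotubes the 1 became 2 with columns not centred (Eya1 and Eya4), 2 for the bins before and 3 for the bins after. Between the 2 kinds of myotubes the 0 became 1 with columns not centred, for the bins before and for the bins after. Negative *r* between myoblasts and myotubes was found for 0 of the bins before. For myoblasts against the AraC-treated cultures, 2 bins were below 0.2 and 2 of the bins after were negative, and between the 2 kinds of myotubes 1 below 0.2, 1 for the bins before and 1 for the bins after. The mean coefficient between members was 1.06, 0.507 and 0.503 SDs of all interchromosomal coefficients for myoblasts and the untreated and AraC-treated myotubes. With the bins before the members it was 0.0122, 0.0102 and 0.0158, and the median over pairs was 0.0159 in myotubes and 0.00727 after AraC treatment. No scaled change of at least 0.5 and no *r* below 0 of a member changed sign under any alternative run. Of the alternatives for single bins, 32 of 120 scaled changes and 7 of 120 values of *r* moved by over 1.5 times, and those of Eya1 did so only for *r* between myoblasts and myotubes by rank correlation (-0.164). For Six2/Six3, *r* over bins of other chromosomes was 0.145 for AraC-treated myotubes against myoblasts and 0.231 against untreated myotubes.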

Other observations

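The partner on another autosome with the highest coefficient differed between the matrices. It is a maximum over many bins, so a small difference can replace it, and no spread between replicates was available. For Eya2 in myotubes, for example, the highest was 0.447, and the bin that was highest after AraC treatment had 0.421 there. The highest partner of the Eya1 bin in myotubes was chr15:12500001-13000000 (6030458C11Rik, Drosha and Pdzd2), at a coefficient of 0.103. This was a B bin with a scaled PC1 of -1.05. In AraC-treated myotubes it was the B bin of Klhl14 at 0.0983.

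For Eya4 the highest partner in myoblasts was chr17:28500001-29000000, with 15 start sites including 4930539E08Rik, AC170998.1 and Armc12 and a scaled PC1 of 2.52, at 0.127, a pair that had 0.0254 in myotubes and -0.0123 in AraC-treated myotubes. In myotubes it was chr2:7000001-7500000, without a protein-coding start site, at 0.0841, and in AraC-treated myotubes chr19:29000001-29500000 (8 start sites including Ak3, Cd274 and Insl6), at 0.0645. Both lay nearer to the compartment border, with scaled PC1 of 0.417 and -0.0180 in those conditions.

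For Six2/Six3 the highest partners were on chr 15 in all 3 conditions. In myoblasts and myotubes they were B bins without protein-coding start sites, chr15:87000001-87500000 at 0.111 and chr15:74000001-74500000 at 0.143. In AraC-treated myotubes it was chr15:84500001-85000000 (7 start sites including 5031439G07Rik, Arhgap8 and Gm29666), with a scaled PC1 of 0.699 there, at 0.112.

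The Eya2, Eya3, Six4, Six5 and Six6 bins had A bins as their highest partners throughout. Eya3 reached 0.380 in myoblasts with the bin of Abhd17a, Adat3 and Amh (26 start sites), 0.556 in myotubes with that of Aqp2, Aqp5 and Aqp6, and 0.438 in AraC-treated myotubes with that of Def6, Fance and Ppard, which was also the highest partner of Six4 in that condition (0.353). Six4 had 0.294 in myoblasts with the bin of Ctu2, Cyba and Il17c and 0.393 in myotubes with that of Dnajb7, Mchr1 and Mrtfa. Eya2 reached 0.342 in myoblasts with the bin of Acsf3, Aprt and Cbfa2t3, 0.447 in myotubes with that of AC140267.1, Atf4 and Cacna1i, and 0.409 in AraC-treated myotubes with that of C1qtnf6, Card10 and Cdc42ep1. Six6 reached 0.178 with the bin of Arhgdig, Axin1 and Decr2, 0.206 with that of 1190005I06Rik, Cox4i1 and Emc8, and 0.250 with that of the forkhead genes Foxc2, Foxf1 and Foxl1. Six5 had partners on chr 11 in each condition, at 0.148 with the bin of Castor1, Ccdc157 and Hormad2 in myoblasts, 0.207 with that of 2810408A11Rik, Acap1 and Atp1b2 in myotubes and 0.120 with that of 0610010K14Rik, Acadvl and Alox12 in AraC-treated myotubes.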
